A study of Pimephales promelas with 12 samples.

Results

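A group of 232 contigs was well expressed in both brain regions of the male fathead minnow and nearly without reads in gut and liver. A contig is an assembled or single cDNA sequence that stands for a transcript here. The members were chosen by their raw read counts, out of 46309 contigs with a read in any library. A member reached a mean of 150 counts in each brain region, averaged over its 3 libraries, and stayed at 5 counts or fewer in each of the 6 libraries of gut and liver. The mean limit alone was met by 14363 contigs, and the other 14131 of these serve below as the other contigs above the brain limit. Because the counts of all 4 tissues chose the members, their difference between brain and the other tissues is given as a description, without a test. The 12 libraries came from hypothalamus, telencephalon, gut and liver of adult males from an in-house culture, untreated as far as the labels say, with 3 replicates per tissue. The methods describe 3 different fish whose tissues were kept separate, and libraries with the same number were taken as 1 fish, which the labels do not state. Every library was made from a whole dissected tissue, so a lower count in a library can come from fewer cells of a type or from less RNA per cell, which cannot be told apart.

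The hypothalamus regulates feeding, stress, growth and reproduction through the pituitary, and the telencephalon of fish handles olfactory input, learning and social behaviour. Both are built of neurons and glia. Transcripts that are shared by brain regions and missing from digestive organs typically encode proteins of the synapse, of ion channels and neurotransmitter receptors, of the neuronal cytoskeleton and of myelin. Which of these classes the members belong to was not determined, since the contigs carry assembly names and expressed sequence tag identifiers. None of the 63 identifiers among the members matched the gene table supplied for this species, and no sequences of the contigs were used, so the tissue labels were not checked against marker genes either.

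The library totals were 18845704 to 22589095 counts in hypothalamus, 17729942 to 21463583 in telencephalon, 19301093 to 20801155 in gut and 14546298 to 16721570 in liver. The members together took a small part of the brain RNA, 0.475 ± 0.0663% of the hypothalamus counts and 0.515 ± 0.0277% of the telencephalon counts (SD, n = 3). By library this was 0.448, 0.426 and 0.550% in hypothalamus replicates 1 to 3 and 0.492, 0.546 and 0.507% in telencephalon replicates 1 to 3, so the regions overlapped. In gut and liver the members took 0.00137 to 0.00187% of the counts. Hypothalamus replicate 2 stood apart from the other brain libraries in many members, and some results that rest on it are also given without it.

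The members were of moderate abundance. Their mean over the 6 brain libraries ran from 157 to 1872 counts with a median of 322, against a median of 580 for the other contigs above the brain limit, whose range reached 585336. The highest member ranked only 2256th among all contigs by this mean. The limit of 5 raw counts in gut and liver is the same at every brain level, so the rule itself can shut out more abundant brain contigs. These levels are therefore a description of what the rule chose. A mean of at least 1000 counts was found for 13 members and of at least 500 for 61, and the 10 highest members held 14.7% of the members' brain counts. The counts ran without a break down to the limit, as the plot of all members by tissue shows. The contig FHM_All_PTA_Assem.16614.C1 led the group with 1838, 2302 and 1976 counts in hypothalamus replicates 1 to 3 and 1779, 1748 and 1587 in telencephalon. Its gut libraries had 4, 2 and 0 counts and its liver libraries 5, 2 and 4, so every brain library was far above every other one. FHM_All_PTA_Assem.14355.C1 came next, with 1688, 2258 and 1775 counts in hypothalamus and 1295, 2307 and 1528 in telencephalon. The PacBio isoform c30962/f1p0/1185 reached 2027, 3672 and 2185 counts in hypothalamus against 587, 865 and 717 in telencephalon, and its regions did not overlap. In FHM_All_PTA_Assem.24805.C1 the hypothalamus libraries had 1398, 402 and 2107 counts and the telencephalon libraries 1570, 1985 and 1348, with hypothalamus replicate 2 as the only low brain library.

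**Figure D1:**
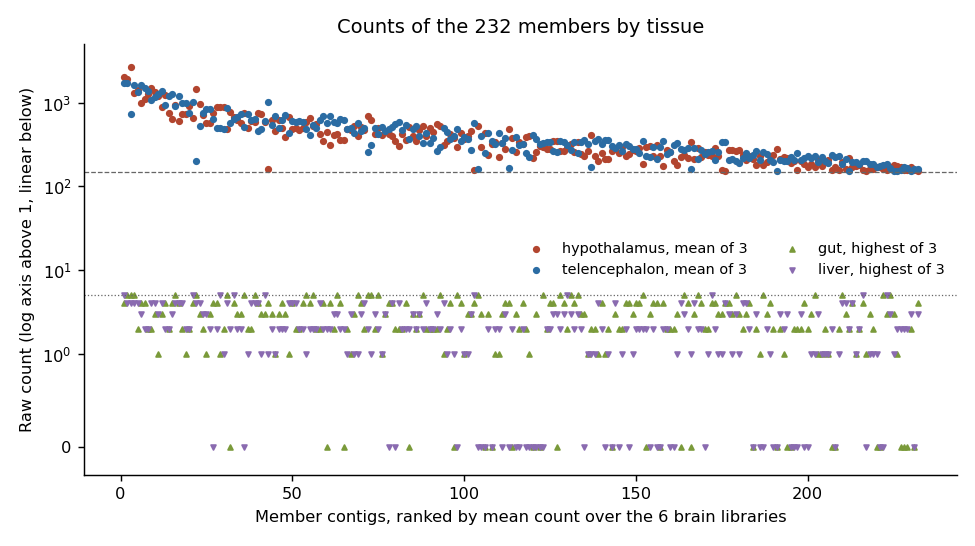
Raw counts of the 232 members, ranked by their mean over the 6 brain libraries, with the mean of the 3 hypothalamus and of the 3 telencephalon libraries (circles) and the highest of the 3 gut and of the 3 liver libraries (triangles). The vertical axis is logarithmic above 1 and linear below, and the dashed and dotted lines are the limits of 150 and 5 counts that chose the members. All brain means lie at or above 150 counts and all gut and liver values at 0 to 5, as the rule set them.

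Few members were wholly without reads in gut and liver. All 6 of these libraries were at 0 for 12 members, all gut libraries for 28 and all liver libraries for 45, while 13 members had a count in each of the 6. Of the 1392 member values in gut and liver, 658 were 0 (47.3%). At these depths, 3 counts are 0.157 to 0.167 CPM in gut and 0.291 to 0.302 CPM in liver, CPM being the count relative to a library size scaled by edgeR's TMM factors, so a contig at 0 is below about that level. More of the remaining reads lay in gut than in liver as raw counts, with 1021 and 697 over all members. The order turned on the TMM-scaled values, where the tested members summed to 16.3 to 20.1 CPM per gut library and 20.1 to 24.4 CPM per liver library. Neither order is a result about the members, since the limit of 5 counts was set on raw counts.

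The limits cut through a continuous range. The highest gut or liver count was 4 for 68 members and 5 for 42, and 67 contigs just outside had a highest count of 6. FHM_All_PTA_Assem.2011.C1 was among the latter, with 3825, 2074 and 3097 counts in hypothalamus, 4366, 4773 and 2269 in telencephalon and 6 in gut replicate 1. The expressed sequence tag GT145606 was likewise outside, with 2207, 2469 and 2345 counts in hypothalamus, 3144, 3833 and 2642 in telencephalon and 6 in gut replicate 2. Both had a higher mean over the 6 brain libraries than any member. At the mean limit, FHM_All_PTA_Assem.8566.C7 and the tag DT128903 were just inside with telencephalon means of 150.3 counts, and FHM_All_PTA_Assem.16340.C1 and c28515/f1p0/1264 just outside with hypothalamus means of 149 counts.

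The rule asked for a floor in each region but did not use their difference, so the hypothalamus was compared with the telencephalon across all 42878 contigs detected in at least 2 replicates of a tissue, 231 members among them. The estimated difference was under 0.5 on the log2 scale for 155 members (67.1%), beside 84.1% of the other contigs above the brain limit. It was at least 2-fold toward hypothalamus for 7 members (3.03%, beside 1.68%) and toward telencephalon for 11 (4.76%, beside 1.43%). Over all contigs tested 65.9% were under 0.5, with 7.23% at least 2-fold toward hypothalamus and 6.59% toward telencephalon. Estimates this large were thus more frequent in the members than in the other contigs above the brain limit. They were less frequent than over all contigs. The members had lower counts than those other contigs (median 322 against 580). Hypothalamus replicate 2, which these estimates include, was also far below the other hypothalamus libraries in more of the members, as given below. The part of either was not tested, and these shares are not given without that library. By the quasi-likelihood test of edgeR, with p adjusted after Benjamini and Hochberg and a threshold of 0.05, only 2 members differed, 1 in each direction. That is 0.866% of the members tested. Over all contigs tested 0.478% differed, 0.252% higher in hypothalamus and 0.226% higher in telencephalon, and among the other contigs above the brain limit 0.842%. The tag DT195400 was higher in telencephalon, with 839, 1179 and 1003 counts against 95, 228 and 164 in hypothalamus. This was a 6.37-fold difference with a log2 fold change of -2.67 (SE 0.372), hypothalamus minus telencephalon, and an adjusted p of 0.0399 (edgeR). FHM_All_PTA_Assem.17088.C1 was higher in hypothalamus, with 526, 440 and 623 counts against 166, 166 and 154. This was 3.16-fold, a log2 fold change of 1.66 (SE 0.249) with an adjusted p of 0.0495 (edgeR). For both contigs the libraries of the regions were well separated.

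Within each direction, the next members in order of p had large differences that did not pass. The tag DT240921 had 1195, 2054 and 1106 counts in hypothalamus against 106, 264 and 230 in telencephalon, a log2 fold change of 2.80 (SE 0.428, adjusted p = 0.0523, edgeR). FHM_All_PTA_Assem.13888.C1 lay the other way, at 99, 169 and 203 counts in hypothalamus against 412, 669 and 617 in telencephalon, a log2 fold change of -1.89 (SE 0.379, adjusted p = 0.141, edgeR). The regions did not overlap in either contig. The leading isoform c30962/f1p0/1185 had a log2 fold change of 1.82 (SE 0.291, adjusted p = 0.0608, edgeR). With the replicate number as a block, which pairs the regions of each fish, all 5 of these contigs passed and no other member did, with 3 higher in hypothalamus and 2 in telencephalon. The blocked adjusted p was 0.00544 for DT195400, 0.0321 for FHM_All_PTA_Assem.17088.C1, 0.00696 for DT240921, 0.0108 for c30962/f1p0/1185 and 0.0157 for FHM_All_PTA_Assem.13888.C1 (edgeR). Over all contigs 0.875% passed with the block (0.499% higher in hypothalamus and 0.375% in telencephalon), and 1.32% of the other contigs above the brain limit. Without the block the 2 calls lay close to the threshold. In the fits with a library left out, the log2 fold change was -2.99 to -2.34 for DT195400 and 1.51 to 1.78 for FHM_All_PTA_Assem.17088.C1. Leaving out hypothalamus replicate 1 or 3, or telencephalon replicate 1, 2 or 3, left 0 members called (22 to 48 at an unadjusted p under 0.05, edgeR). The shares of all contigs in these fits are not given here, so the loss is no result about the members. Leaving out hypothalamus replicate 2 left 4, with 2 in each direction, beside 0.690% of all contigs (0.320% higher in hypothalamus and 0.371% in telencephalon). With the block as well, 46 members passed, 23 in each direction, beside 6.12% of all contigs (3.39 and 2.73% by direction) and 10.5% of the other contigs above the brain limit. That fit was chosen after seeing the data and keeps 1 residual degree of freedom. Other tools called more of all contigs and more members. By edgeR's exact test 4 members were higher in hypothalamus and 2 in telencephalon, beside 1.20% of all contigs (0.651 and 0.550% by direction). By DESeq2 it was 5 in each direction, beside 1.98% (1.13 and 0.854%).

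**Figure D2:**
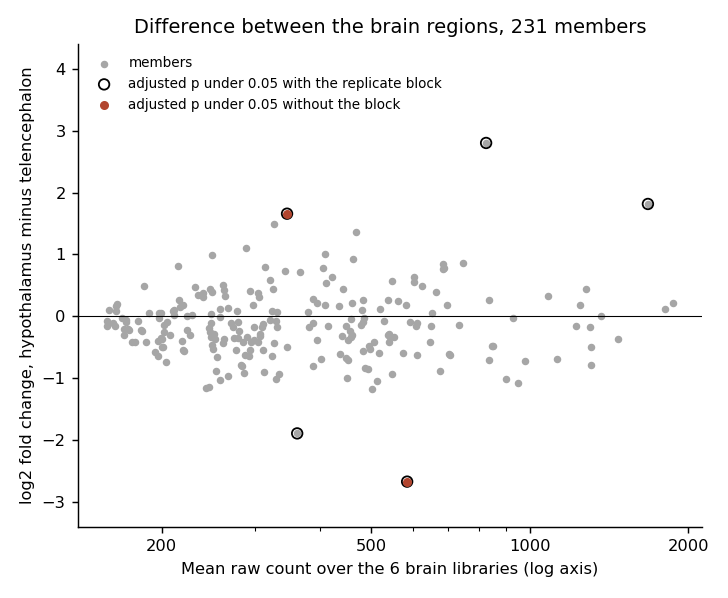
The log2 fold change of each of the 231 tested members, hypothalamus minus telencephalon, against its mean raw count over the 6 brain libraries on a log axis. Filled red points are the 2 members with an adjusted p under 0.05, and black rings the 5 that pass with the replicate number as a block. Most points lie within 0.5 of 0, and 155 of the 231 are inside that range.

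The members' median log2 fold change was -0.15, hypothalamus minus telencephalon, against 0.01 for the other contigs above the brain limit, but it differed between fish. By fish the median log2 ratio of hypothalamus to telencephalon was -0.15, -0.40 and 0.05 for fish 1 to 3, so fish 3 lay the other way. The members' median fold change was -0.08 without hypothalamus replicate 2 (-0.01 for the others) and -0.29 without hypothalamus replicate 3 (0.07 for the others). With the replicate block it was -0.24 for the members and -0.01 for the others. With the block and without hypothalamus replicate 2, a fit chosen after seeing the data, it was -0.02 for the members and -0.02 for the others. Every telencephalon library was above every hypothalamus library for 37 members (16.02%), beside 6.57% of all contigs and 8.83% of the other contigs above the brain limit. Every hypothalamus library was above every telencephalon library for 18 members (7.79%), beside 5.67% of all contigs and 7.36% of the other contigs above the brain limit. Without hypothalamus replicate 2 the count was 51 members for telencephalon (22.1%) beside 18.5% of the other contigs above the brain limit, and 32 for hypothalamus (13.9%) beside 12.1%. For telencephalon the share of the members was then closer to that of the other contigs above the brain limit, and for hypothalamus it was not. Fewer libraries separate more easily, and the shares rose in both sets, so the higher counts are no result about the members. The shares of all contigs are not given for this setting.

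Hypothalamus replicate 2 was the library in which members most often stood apart. To compare replicates, counts were scaled to CPM with TMM factors of the 6 brain libraries. In 61 of 231 members (26.4%) this library was more than 2-fold below the lower of the other hypothalamus libraries, and in 8 it was more than 2-fold above the higher of them. Among the other contigs above the brain limit it was more than 2-fold below in 11.4%. In no other brain library were more than 11 members this far below. The 61 members had a median of 3.61 CPM in hypothalamus replicate 2, against 14.3 and 18.9 CPM in replicates 1 and 3. By the median the telencephalon of the same fish was not low in them, at 16.6 CPM beside 15.7 and 15.05 CPM in the other fish. Some of them were low there too, among them those furthest below. In telencephalon DT264712 had 503, 3 and 347 counts, FHM_All_PTA_Assem.2191.C3 541, 10 and 281, and FHM_All_PTA_Assem.13901.C1 518, 8 and 128. Other members were low in hypothalamus replicate 2 alone. In hypothalamus the isoform c26340/f1p0/1182 had 196, 19 and 502 counts, against 211, 348 and 209 in telencephalon. The sequence Singlet_15845 was at 159, 15 and 282 counts in hypothalamus, against 146, 277 and 173 in telencephalon. All of these contigs were named after their values were seen. The members low in this library came from every source of contigs, with 34 of 127 assembly contigs, 11 of 62 tested expressed sequence tags, 7 of 18 single sequences and 9 of 24 PacBio isoforms. In the 162 members that were neither far below nor far above, its median of 17.0 CPM was close to the 16.5 and 17.85 CPM of the other hypothalamus libraries. The level of this library formed these groups, so their hypothalamus medians follow from the grouping. As raw counts, the 61 low members had a median of 73 in hypothalamus replicate 2, against 313 and 369 in replicates 1 and 3. The TMM factor of hypothalamus replicate 2 over the 6 brain libraries was 0.896, the lowest, beside 0.986 to 1.05 in the others. The part of this scaling in the pattern was not tested.

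**Figure D3:**
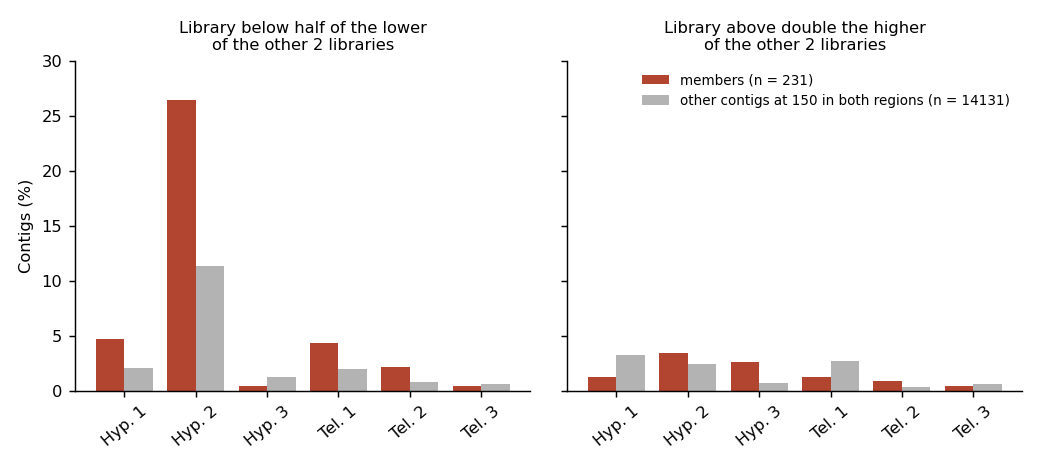
Share of contigs, in percent, for which a brain library was more than 2-fold below the lower (left) or more than 2-fold above the higher (right) of the other libraries of its region, in TMM-scaled CPM. Red bars are the 231 tested members and grey bars the 14131 other contigs that reach a mean of 150 counts in both regions. Hypothalamus replicate 2 stands out on the left with 26.4% of members and 11.4% of the other contigs.

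The members also varied more between replicates than the other contigs above the brain limit. The median coefficient of variation within hypothalamus was 38.0% for members and 26.5% for the other contigs above the brain limit, and with hypothalamus replicates 1 and 3 alone it was 18.8 and 12.7%. Within telencephalon it was 15.5 and 11.9%. The members' lower counts move with this, and their part in it was not tested. The steadiest members were nearly level over both regions. In the sequence Singlet_10065, 444, 480 and 446 counts in hypothalamus stood beside 461, 509 and 403 in telencephalon, a coefficient of variation of 5.46% over the 6 brain libraries in CPM. For the tag DT250584 the counts were 336, 314 and 304 in hypothalamus, 391, 357 and 288 in telencephalon and 0 in every gut and liver library, with a coefficient of variation of 8.69%.

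Some of the widest differences within the group were between fish. A test of the replicate number over the 6 brain libraries, with the region as a term, found 13 of 231 members (5.63%), beside 4.57% of all contigs and 4.64% of the other contigs above the brain limit (edgeR, adjusted p under 0.05). The members' share was thus close to that of all contigs. Over all 231 tested members the same fish was the lowest in both regions for 37.7% and the highest in both for 31.2%, beside 40.6 and 39.1% of the other contigs above the brain limit. With 3 fish, about 1 in 3 would match without any link only if each fish were lowest or highest equally often. Among the members, hypothalamus replicate 2 was the lowest of its region in 53.2% and telencephalon replicate 2 in 16.9%. The shares of matching fish therefore do not show whether the regions were linked. They include hypothalamus replicate 2 and are not given without it. FHM_All_PTA_Assem.3548.C2 had 1216 counts in hypothalamus and 510 in telencephalon of fish 3, but 3 and 1 counts in fish 1 and 4 and 1 in fish 2 (adjusted p = 0.000213, edgeR). FHM_All_PTA_Assem.9369.C2 had 4 and 3 counts in fish 1, 366 and 564 in fish 2 and 505 and 885 in fish 3 (adjusted p = 0.000899, edgeR). In both contigs the fish were much further apart than the regions of a fish.

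Such near absence from a fish was seen in 7 members, which had at most 10 counts in both brain libraries of a fish and at least 100 in both of another. That is 3.02% of the members, beside 0.502% of the other contigs above the brain limit, a difference of shares that was not tested. A contig missing from a fish would have few or no reads in its gut and liver, which can help it meet the limit of 5 counts. The lower counts of the members can also make 10 counts easier to reach. The part of either was not tested. The difference of shares is therefore no result about the members. In the telencephalon libraries alone, which leave out hypothalamus replicate 2, the counts were 8 members (3.45%) and 0.609% of the others. Fish 1 was the low one in 5 of the 7, fish 2 in 3 and fish 3 in 1. The tag DT223481 was found in fish 2 alone. It had 1962 counts in hypothalamus, 1231 in telencephalon, 4 in gut and 2 in liver of that fish, and 0 in all 8 libraries of the others. It was the only member that failed the filter, since no tissue had a count in at least 2 replicates, and without the filter its adjusted p between replicate numbers was 0.000501 (edgeR). FHM_All_PTA_Assem.1963.C1 had 0 counts in both brain regions of fish 1, 521 and 467 in fish 2 and 174 and 157 in fish 3. FHM_All_PTA_Assem.13681.C1 had 0 counts in all 4 tissues of fish 1, 431 and 255 in the brain regions of fish 2 and 223 and 200 in those of fish 3. The tag DT264712 went the other way, with 388 and 503 counts in fish 1, 259 and 347 in fish 3 and only 1 and 3 in fish 2. FHM_All_PTA_Assem.2191.C3 had 548 and 541 counts in fish 1, 258 and 281 in fish 3 and 3 and 10 in fish 2. A mean over 3 libraries thus let contigs into the group that some of the fish hardly carried, and 132 of the 232 members had at least 150 counts in every brain library.

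**Figure D4:**
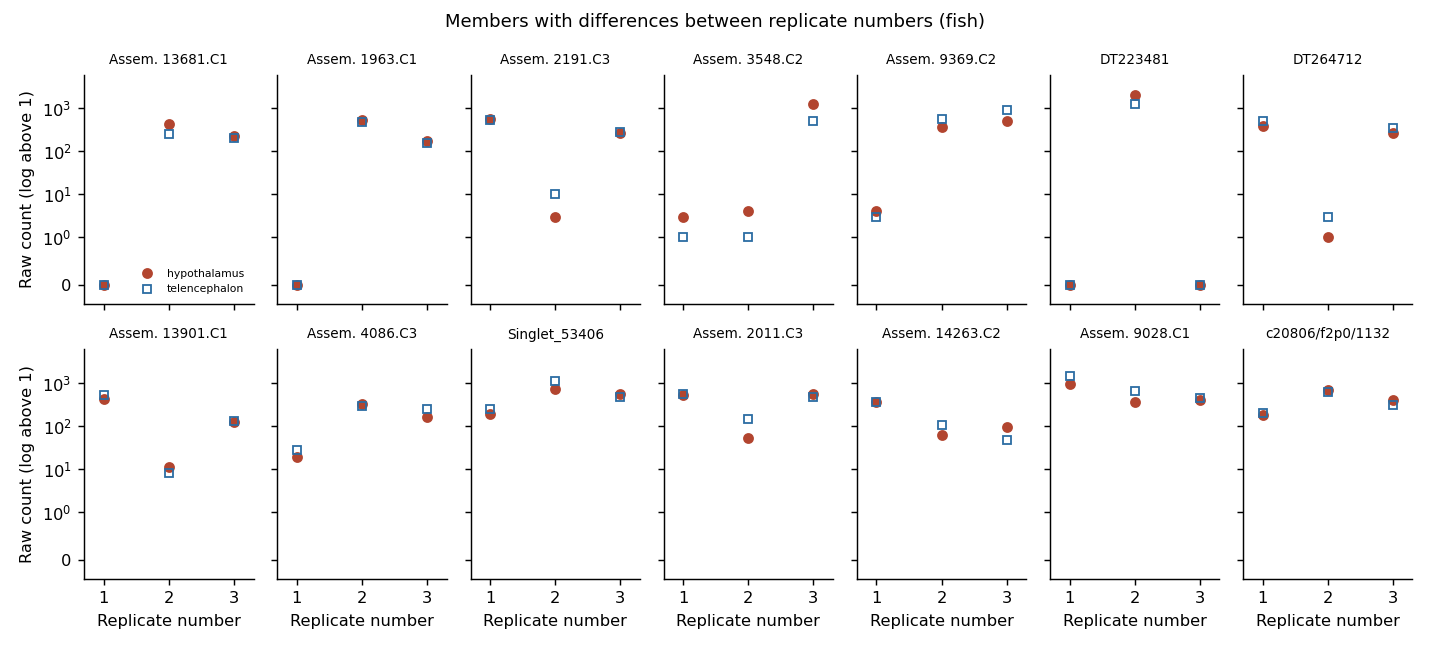
Raw counts of 14 members in hypothalamus (filled circles) and telencephalon (open squares) by replicate number, which stands for the fish, on an axis that is logarithmic above 1 and linear below. The 14 are the 13 members with an adjusted p under 0.05 between replicate numbers and DT223481, which failed the filter. FHM_All_PTA_Assem.3548.C2 has 1216 and 510 counts in fish 3 and at most 4 in the others.

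How firm these calls were differed between contigs. FHM_All_PTA_Assem.3548.C2 and FHM_All_PTA_Assem.9369.C2 were picked for the lowest p in this test. They stayed under 0.05 in every alternative that gave an adjusted p, with 0.00605 and 0.0165 as the highest (edgeR and DESeq2). The former did not pass edgeR's own filter and has no value under it. The count of members called was less steady. It was 10 to 17 when hypothalamus replicate 1 or 3 or telencephalon replicate 1 was left out, 51 without hypothalamus replicate 2 (16.1% of all contigs), 158 without telencephalon replicate 2 (40.7%) and 33 without telencephalon replicate 3 (7.59%). By DESeq2 it was 21, beside 6.08% of all contigs. Without telencephalon replicate 2, fish 2 is represented only by hypothalamus replicate 2, and each fit with a library left out keeps 1 residual degree of freedom. Where no share of all contigs stands beside a count, that count is no result about the members.

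Some members had related contigs with another tissue pattern. The assembler grouped sequences by similarity, and contigs of a cluster share the number in their name. They may be isoforms, alleles or copies of a gene, and since only uniquely mapped reads were counted, reads that fit several of them were dropped. Of the 127 assembly contigs among the members, 49 (38.6%) had at least 1 other contig in their cluster, as did 31.03% of the other assembly contigs above the brain limit. For 41 members such a mate reached a mean of 50 counts in some tissue, and for 14 it did so in gut or liver (21 with a mean of 10 and 7 with a mean of 150). Among the 99 different mates, 41 also stayed at or below 5 counts in every gut and liver library. The mate with the highest mean in gut or liver was FHM_All_PTA_Assem.740.CB2, with 2679, 2734 and 2739 counts in gut and 3545, 4322 and 3081 in liver, where the member FHM_All_PTA_Assem.740.C17 had at most 2. In brain this mate had 612 to 1088 counts and the member 70 to 280. FHM_All_PTA_Assem.5407.C3 had 1291 to 2679 counts in the brain libraries, 2151 to 2519 in gut and 1830 to 2046 in liver. On the TMM scale this was 50.5 to 91.3 CPM in brain, 119 to 132 CPM in gut and 184 to 199 CPM in liver, so its brain libraries were the lowest. The counts of its member FHM_All_PTA_Assem.5407.C6 were 661, 198 and 838 in hypothalamus, 908, 923 and 679 in telencephalon and at most 3 elsewhere.

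Of the 13 members that differed between fish, 6 had such a mate, and the mate with the most brain counts had at least 42 counts in every brain library. FHM_All_PTA_Assem.3548.C1 had 5303, 6857 and 6260 counts in hypothalamus, against 1963, 2007 and 2277 in telencephalon, so all fish carried it, while FHM_All_PTA_Assem.3548.C2 had over 4 counts only in fish 3. For FHM_All_PTA_Assem.9369.C1 the hypothalamus counts were 794, 936 and 589 and the telencephalon counts 1438, 1497 and 899, and the member FHM_All_PTA_Assem.9369.C2 was nearly absent from fish 1. FHM_All_PTA_Assem.4086.C2 ranged from 3976 to 12155 counts over the brain libraries, and the member FHM_All_PTA_Assem.4086.C3 had 19 and 28 in fish 1 against 156 to 312 in the others. FHM_All_PTA_Assem.14263.C1 lay between 6011 and 9002 counts in brain, while FHM_All_PTA_Assem.14263.C2 had 360 in both regions of fish 1 and 46 to 106 in the others. In the cluster of FHM_All_PTA_Assem.2191.C3 the mate FHM_All_PTA_Assem.2191.C2 ran the other way, with 53 and 42 counts in fish 1, where the member was highest, and 167 and 373 in fish 2, where it was lowest. In gut the mates of FHM_All_PTA_Assem.3548.C2 and FHM_All_PTA_Assem.4086.C3 had up to 181 counts, and those of the other 4 at most 21. Clusters with several members were rare, at 3. The members FHM_All_PTA_Assem.2011.C2 and FHM_All_PTA_Assem.2011.C3 were both low in fish 2, with 214 and 841 counts for the first and 53 and 147 for the second in hypothalamus and telencephalon. In the other fish they had 1408 to 1896 and 469 to 557 counts. Their mate FHM_All_PTA_Assem.2011.C1, the contig just outside the gut limit, had 2074 and 4773 counts in fish 2 and 2269 to 4366 in the others. FHM_All_PTA_Assem.2585.C2 had 322 to 755 counts in the brain libraries and FHM_All_PTA_Assem.2585.C3 352 to 559, and FHM_All_PTA_Assem.13764.C1 had 98 to 404 and FHM_All_PTA_Assem.13764.C2 67 to 380.

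**Figure D5:**
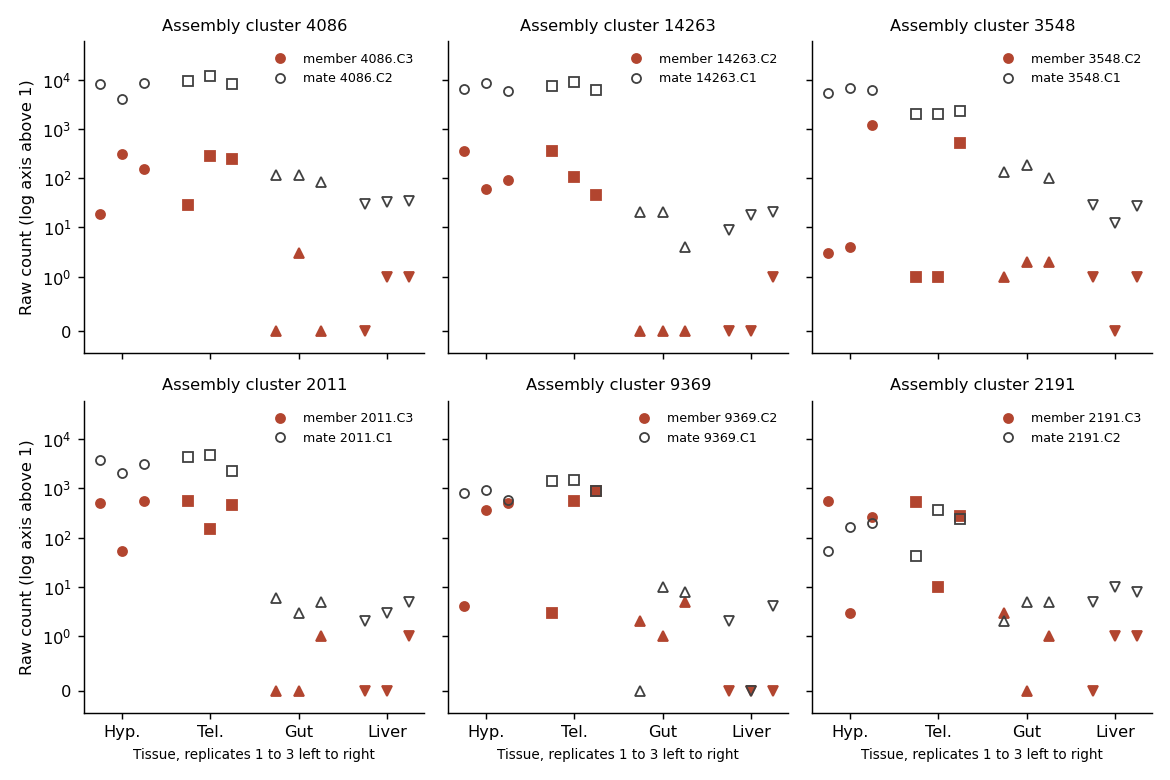
Raw counts of the 6 members that differ between fish and have a related contig (red, filled) and of the related contig of the same assembly cluster with the most brain counts (dark, open), in the 3 libraries of each tissue, on an axis that is logarithmic above 1 and linear below. The mate FHM_All_PTA_Assem.3548.C1 has 1963 to 6857 counts in every brain library, where the member FHM_All_PTA_Assem.3548.C2 exceeds 4 only in replicate 3.

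The members came from all the main sources of the reference, in other proportions than the other contigs above the brain limit. Assembly contigs made up 54.7% of the members and 71.8% of those contigs. Expressed sequence tags, short reads of cDNA clones, were 63 of the members (27.2%) and 14.0% of those contigs. Unassembled single sequences were 18 members (7.76%) and PacBio isoforms 24 (10.3%), against 5.96 and 7.98%. Over all 46309 contigs the shares were 46.9% assembly contigs, 24.25% tags, 17.8% single sequences and 10.15% PacBio isoforms. Except for single sequences, the members were closer to these shares than to those of the other contigs above the brain limit. These shares describe sequences and not genes, since several contigs can come from the same transcript.

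Only the PacBio names give a length, so only for these isoforms could levels be compared per length. The 24 isoforms were 640 to 4221 bases long with a median of 1196, against a median of 1499 for the 1128 other isoforms above the brain limit. Their names count 1 full-length read for 18 of the 24. The longest was c1535/f2p2/4221, with 126, 334 and 290 counts in hypothalamus, 91, 416 and 454 in telencephalon and a mean of 67.6 counts per kilobase over the brain libraries. Its lowest library in each region was that of fish 1. The next was c12000/f1p0/3317, with 3317 bases, 248, 70 and 366 counts in hypothalamus, 231, 261 and 122 in telencephalon and 65.2 counts per kilobase. The highest level per length was 1414 counts per kilobase, in the 1185 bases of c30962/f1p0/1185, and the median of the 24 was 203, against 310 for those other isoforms.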

How the data were processed

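RNA-seq libraries of 4 tissues, 3 each, were grouped by the sample titles. The authors trimmed the reads (Cutadapt), aligned them (bowtie 2), dropped likely PCR duplicates and kept the uniquely mapped ones. They then counted reads per sequence with in-house scripts, and the deposited values are raw counts without normalization. Their versions were not given in the sources used here, and the methods name both the study's consensus sequences and zebrafish sequences as reference. Contigs absent from a list were set to 0.

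The members and the alternatives were chosen with earlier results of these data known. Fits used R 4.3.3, edgeR 4.0.16 with TMM factors and quasi-likelihood tests, over contigs detected (1 count or more) in 2 or 3 replicates of any tissue, with Benjamini-Hochberg adjustment over all contigs tested and a threshold of 0.05. SE is the absolute log2 fold change divided by the root of the F statistic. DESeq2 1.42.0, edgeR's exact test, other scalings and filters, the replicate block and leaving out libraries were alternatives. The tests were checked on simulated data, where both made a larger share of false calls than their threshold names, and more so the one between replicate numbers.

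Same-numbered libraries of the brain regions deviated together across the 22972 contigs that reached 50 counts in 3 or more brain libraries (r of 0.814, 0.265 and 0.347 for numbers 1, 2 and 3). Hypothalamus 2 with telencephalon 3 gave 0.199 and hypothalamus 3 with telencephalon 2 gave 0.160, close to pair 2. Every same-numbered pair was over the limit of 0.1, but these mismatched pairs were too, so only number 1 stood clearly apart across these contigs. In the 231 members alone r was 0.845, 0.398 and 0.355 for numbers 1, 2 and 3. There the same mismatched pairs gave 0.125 and -0.0882. The labels do not tie the numbers to fish, and the numbers were read as pairs because the methods describe 3 fish. Gut and liver libraries were not part of this check. Named contigs were the 4 highest members, the leading ones of each test and direction, those nearest the limits, the steadiest, the longest, and those of clusters with several members or with the highest mates. The gene table (64593 genes) matched 0 of 11230 identifiers, so the cell type marker lists could not be looked up. Precision is limited by 3 replicates per tissue, and limits from counts cover counting error only.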

Additional observations from a re-analysis of the deposited data

How the results depend on the processing

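The number of members depended on the limits. It was 12, 26, 77 and 524 when the limit per gut or liver library was 0, 1, 2 and 10 counts, and 607, 101 and 37 with a mean of at least 50, 300 and 500 counts in each region. It was 132 with at least 150 counts in every brain library, and 209 to 298 when a library was left out. Limits on TMM-scaled CPM gave 105 contigs, all of them members (45.3% of the 232), with 150 counts set at 7.41 CPM and 5 counts at 0.247 CPM, which were not varied separately. As a share of the TMM-scaled library size, the members summed to 0.371% in hypothalamus and 0.393% in telencephalon.

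Of the members, 2 differed between the regions, and 1 did with RLE size factors, 10 with DESeq2, 6 with edgeR's exact test, 5 with the replicate block and 0 to 4 when a library was left out. Higher in hypothalamus were 2 with library size alone, edgeR's own filter, no filter or a fit of all 4 tissues, 5 with DESeq2, 4 with the exact test, 3 with the replicate block and 0 to 2 when a library was left out. Higher in telencephalon were 0 with RLE size factors or the fit of all 4 tissues, 5 with DESeq2, 2 with the exact test, 2 with the replicate block and 0 to 2 when a library was left out. For RLE size factors, library size alone, the filters and the fit of all 4 tissues, the shares of all contigs are not given here. Those counts are therefore no result about the members. The replicate block without hypothalamus replicate 2, chosen after seeing the data, gave 46 members (23 in each direction) beside 6.12% of all contigs, with 1 residual degree of freedom. The adjusted p of DT195400 reached 0.257 and that of FHM_All_PTA_Assem.17088.C1 0.503. The direction of the 4 contigs named first by this test held in all 16 alternatives.

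Between replicate numbers 13 members differed, and 8 did with library size alone, 21 with DESeq2 and 10 to 158 when a library was left out. The causes were not tested. The 41 members with a related contig at a mean of 50 counts in any tissue became 45 at 10 and 31 at 150, and the 14 with one in gut or liver became 21 and 7.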
